A study of Mus musculus with 24 samples.

Results

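Potassium channel genes were examined in cultured organs of Corti (OCs), the sensory epithelium of the cochlea. A gene was included when its Entrez identifier maps to a mouse symbol made of Kcn, letters and a final number. This rule found 92 of the 24454 genes counted, and it uses no measured value. Of them, 77 encode pore-forming subunits and 15 encode auxiliary subunits.

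OCs of male and female C57BL/6N mice, taken at age P5 (postnatal day 5), spent 24 h in culture before any treatment. A further 6 or 24 h followed in drug-free medium (CTRL), in gentamicin at 50 μM (GM), in pioglitazone at 10 μM (PIO) or in the combination (PIO+GM). Gentamicin belongs to the aminoglycosides, which are toxic to hair cells, and pioglitazone activates PPAR-γ, a transcription factor controlled by lipid ligands. All groups share the strain, the age, the medium with penicillin and serum and the 24 h in culture before treatment. Each of the 8 groups held 3 libraries (24 in total) made from pools of 6 OCs, so differences between animals cannot be seen. The sources used here do not say that replicates came from separate litters or culture days, and p-values measure the spread between these libraries.

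Potassium is the ion that carries the receptor current of hair cells, because the endolymph that bathes their apical side is rich in it. Hair cells release potassium through voltage-gated and calcium-activated channels at their base. Supporting cells and fibrocytes then take it up, and the stria vascularis of the lateral wall secretes it back into the endolymph. Voltage-gated (Kv), KCNQ and EAG channels open on depolarization, inward rectifiers (Kir) pass current near the resting potential, tandem-pore (K2P) channels carry leak current, and silent Kv subunits act only in complexes with other Kv subunits.

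Totals per library ranged from 7211357 to 15548856 counts on genes. Levels are given as RPKM, reads scaled to gene length and library total, which can be compared between genes. As a measure of background, 1479 olfactory and vomeronasal receptor genes were used, and their summed level in CPM, counts scaled to the library total, ranged from 38.7 to 277.6, with the highest values in replicate 3 of PIO+GM at 6 h (277.6 CPM) and replicate 2 of PIO at 6 h (208.4 CPM). The 11 hair cell marker genes found in the table and all 8 supporting cell markers were above that background, whereas 5 of 6 skeletal muscle markers were not. Markers of Schwann cells (7 of 7), spiral ganglion neurons (7 of 7), macrophages (7 of 7) and fibrocytes (6 of 6) were also above it, so the libraries hold RNA of more than the sensory epithelium. In such bulk samples fewer cells of a type and less RNA per cell cannot be told apart.

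Most potassium channel genes were expressed, and most of them at low levels. A gene was taken as expressed when its median level over the 24 libraries exceeded 0.209 RPKM, the 99th percentile of the receptor genes. By this rule 72 of the 92 genes (78.3%) were expressed, compared with 67.7% of all genes. The median of the expressed members was 1.38 RPKM, whereas that of the 16317 genes that passed the filter on low counts was 8.52 RPKM. Only 44 members reached 1 RPKM and 9 reached 5 RPKM, and the highest member stood at the 73.5th percentile of the genes that passed the filter. The members closest to the limit were Kcnj14 (0.221 RPKM) and Kcnk4 (0.213 RPKM) above it and Kcna7 (0.178 RPKM) and Kcnj3 (0.174 RPKM) below it, which were named for that position after their values were seen. Exons of Catsperz on the same strand cover 33.8% of the length of Kcnk4, so its place above the limit is uncertain.

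**Figure D1:**
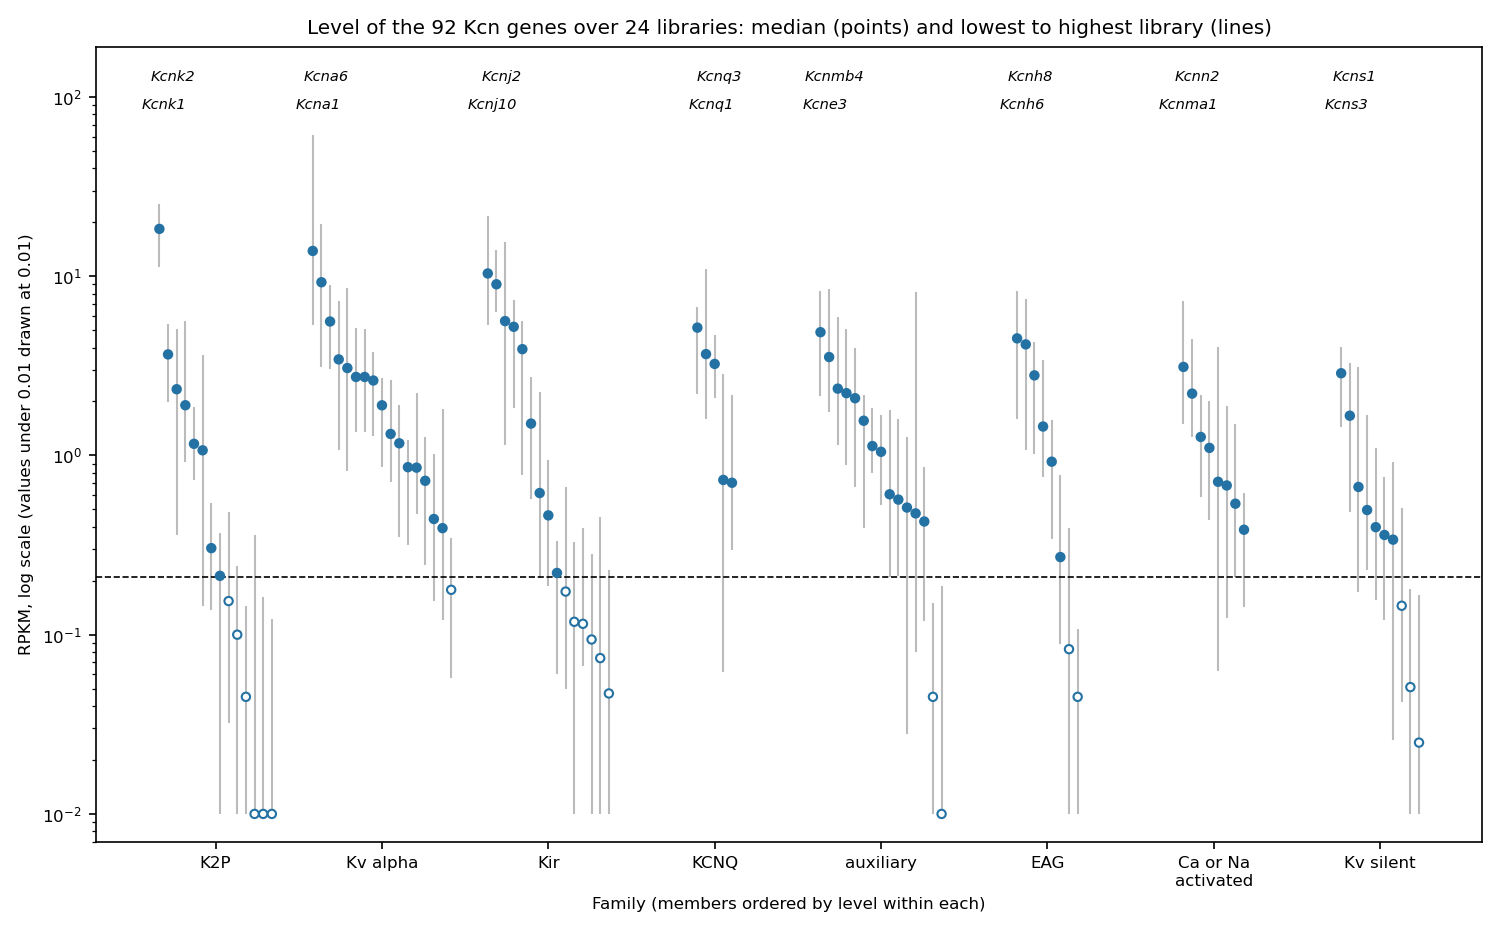
Median level of each of the 92 genes over the 24 libraries (points) on a log scale of RPKM, by family, with lines from the lowest to the highest library and the names of a pair of the highest genes in each family. The dashed line is the background limit of 0.209 RPKM, filled points are the 72 genes above it and open points the 20 that were not, among which 4 had a median of 0.

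The K2P family held the highest member, and 6 of its genes were not expressed. Kcnk1, a weakly conducting leak channel, had a median of 18.4 RPKM and ranged from 11.3 to 25.4 RPKM over the 24 libraries. Kcnk2, a leak channel gated by stretch and lipids, followed at 3.66 RPKM. Of the 14 members of the family 8 were expressed, and Kcnk12, Kcnk15 and Kcnk16 had medians of 0.

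Among the 17 Kv alpha genes 16 were expressed, all but Kcna7. Kcna1, which encodes a channel of axons and of the auditory pathway, had a median of 13.8 RPKM but ranged from 5.34 to 61.6 RPKM. Kcna6 (9.25 RPKM), Kcnb2 (5.59 RPKM) and Kcna2 (3.44 RPKM) followed. Kcna10, a channel of hair cells, had a median of 3.07 RPKM and ranged from 0.814 to 8.55 RPKM. The library with the most Kcna1, replicate 2 of GM at 6 h, was also the one with the highest summed level of the 7 Schwann cell markers (1011.9 RPKM, against a lowest value of 114.3 RPKM), and the part of these cells in the level of Kcna1 was not tested.

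The 15 Kir genes split into 9 that were expressed and 6 that were not. The 4 highest were Kcnj10 (10.4 RPKM), the channel of supporting cells, glia and the intermediate cells of the stria, Kcnj2 (9.01 RPKM), a strong inward rectifier, Kcnj16 (5.62 RPKM), which forms channels together with Kcnj10, and Kcnj8 (5.22 RPKM), the pore of ATP-sensitive channels of vessels. Kcnj13, known from epithelia that transport ions, had a median of 3.92 RPKM. Several members of this and the Kv family lie side by side in the genome, and some neighbours differed in level while others did not. Kcnj9 (0.094 RPKM) lies 11.9 kb from Kcnj10 on chromosome 1, and Kcnj16 lies 38.2 kb from Kcnj2 on chromosome 11. On chromosome 6, Kcna5 (1.17 RPKM), Kcna1 and Kcna6 follow each other with gaps of 105.0 and 61.9 kb. Kcna2 and Kcna10, 68.1 kb apart on chromosome 3, had similar medians, and Kcnj5 (0.118 RPKM) and Kcnj1 (0.074 RPKM), 28.1 kb apart on chromosome 9, were both at the level of the background.

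All 5 KCNQ and all 8 calcium- or sodium-activated channel genes were expressed. Among the KCNQ genes, Kcnq1 stood at 3.68 RPKM and Kcnq3 at 3.24 RPKM. Kcnma1, the large-conductance calcium-activated channel that hair cells acquire as hearing matures, had a median of 3.12 RPKM, and Kcnn2, the small-conductance channel through which efferent fibres inhibit hair cells, had 2.21 RPKM. Among the EAG genes Kcnh6 (4.50 RPKM) and Kcnh8 (4.17 RPKM) were highest and 6 of 8 were expressed. The silent Kv subunits were lower, with Kcns3 first (2.88 RPKM) and 7 of 10 expressed.

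Of the 15 auxiliary subunits 13 were expressed. Kcne3, a partner of Kcnq1 in epithelia, was the highest (4.87 RPKM), followed by Kcnmb4 (3.54 RPKM), a partner of Kcnma1. Kcnmb1, another partner of Kcnma1 and the only one of the 5 hair cell channels chosen that was not expressed, had between 0 and 6 counts in a library. The authors' use of the strand in counting is not given in the sources used here. An antisense gene covers 40.3% of the exon length of Kcna6, and Gigyf2 covers 20.4% of that of Kcnj13. For Kcnmb4, the antisense genes Kcnmb4os2 and Kcnmb4os1 cover 69.0% and 35.3%. Levels of these genes may include reads of their partners.

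Kcne1 and Kcnq1 separated the libraries in a way the groups do not describe. Together their products form the channel with which marginal cells of the stria secrete potassium into the endolymph. Kcne1 lay between 3.06 and 8.16 RPKM in 8 libraries and between 0.080 and 1.17 RPKM in the other 16. Exactly 1 of those 8 libraries belonged to each of the 8 groups: replicate 2 of CTRL, replicate 3 of GM, replicate 3 of PIO and replicate 1 of PIO+GM at 6 h, and replicate 2 of every group at 24 h. The same 8 libraries were the highest for Kcnq1, with 5.25 to 10.9 RPKM against 1.60 to 5.04 RPKM in the others. Kcne3 ranged from 2.71 to 8.25 RPKM in the 8 libraries and from 2.15 to 6.83 RPKM in the rest, so its ranges overlapped.

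Markers of the stria moved with them. Dct and Tyr, genes of melanin synthesis in its intermediate cells, lay at 26.3 to 70.7 RPKM and 1.27 to 4.19 RPKM in the 8 libraries and at 0.541 to 7.98 RPKM and 0.0219 to 0.714 RPKM in the other 16. Esrrb, a transcription factor of marginal cells, ranged from 2.22 to 7.82 RPKM against 0.109 to 1.13 RPKM. Of the 7 stria markers chosen, Slc12a2 (80.3 to 148.0 against 65.6 to 144.0 RPKM) and Met (11.1 to 34.8 against 10.8 to 30.0 RPKM) overlapped between the 2 sets of libraries. Mlana and Bsnd were not above background over all libraries. Their medians were 0.882 and 1.27 RPKM in the 8 libraries and 0.0 and 0.083 RPKM in the other 16, with some overlap of the ranges. Kcnj16 went the other way, at 1.15 to 5.42 RPKM in the 8 libraries and 3.09 to 15.5 RPKM in the rest, with some overlap. The part of strial cells in these levels was not tested. Results are also given without them where the count of called genes moved by more than 1.5 times.

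**Figure D2:**
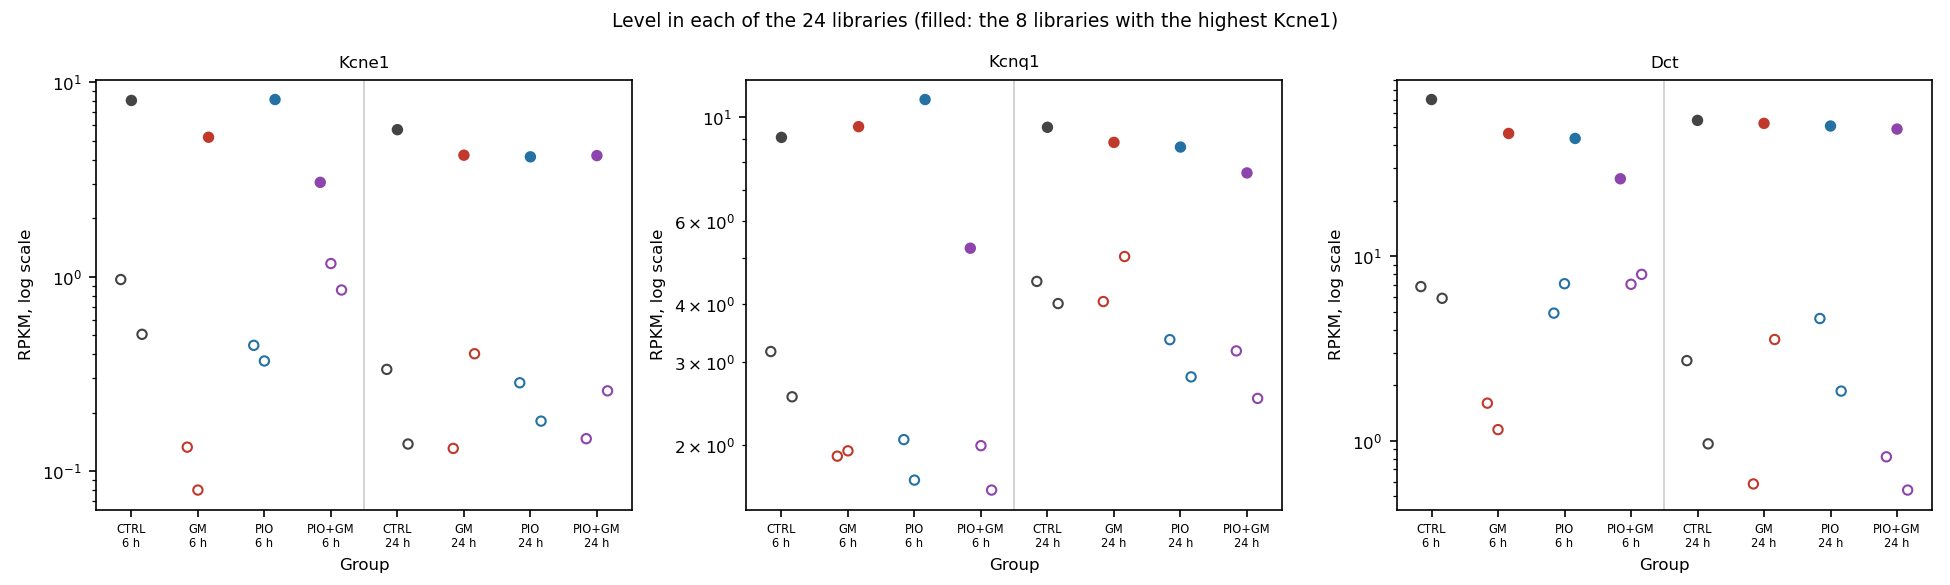
Level of Kcne1, Kcnq1 and the melanocyte gene Dct in each of the 24 libraries, on a log scale of RPKM, by group. Filled points are the 8 libraries with the highest Kcne1, 1 in each group, and they are also the 8 highest for Kcnq1.

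The 2 time points were compared with 12 libraries each. Differences were tested with edgeR's quasi-likelihood test, with Benjamini-Hochberg adjustment of its p-values across the 16317 genes left by the filter on low counts, and a threshold of 0.05. Of the 92 members 80 passed that filter. Averaged over the 4 treatments, 30 members were lower and 13 higher at 24 h than at 6 h, which is 30 and 13 of 80, where 30.7% of all genes tested were lower and 31.9% higher. The median log2 fold change of the 80 members was -0.176 and that of all genes 0.017. All 13 members that were higher, and 24 of the 30 that were lower, had the same sign in each of the 4 treatments taken alone. The exceptions were Kcnab2, Kcnip2, Kcnj1, Kcnj13, Kcnk9 and Kcns3. Kcnj1, which passed the filter only through the pioglitazone libraries at 6 h, is among the 30 and among those changed at least 2-fold, with log2 values of -0.02 in CTRL and 0.58 in GM, so its call is not a result on culture time. Kcnj13 had log2 values of -0.09 in CTRL and 0.26 in PIO but of -1.14 in GM and -1.70 in PIO+GM, so its call rests on the treatments with gentamicin. A change of at least 2-fold was found for 16 members, all of them lower at 24 h, of which 10 were above background and 6 were not. Each of those 6 had its highest level in a library at 6 h, and Kcnj5 and Kcnj6 had median counts of 7 and 4. Genes with so few counts can pass the filter through the libraries where they are high, so the direction of these 6 is a description. The summed level of the receptor genes went the same way, from 56.9 to 277.6 CPM (median 121.8) at 6 h and from 38.7 to 165.4 CPM (median 76.4) at 24 h. In a fit with the receptor share as a covariate 24 members were lower and 11 higher, and 53.7% of all genes were called compared with 62.6% without it.

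Several voltage-gated genes were lower at 24 h. Kcnf1, a silent Kv subunit, ranged from 0.507 to 3.13 RPKM with a median of 1.83 RPKM in the 12 libraries at 6 h and from 0.174 to 0.674 RPKM with a median of 0.369 RPKM at 24 h. Its log2 fold change was -2.15 (SE 0.21, adjusted p = 4.94e-08). Only 1 library, replicate 3 of PIO+GM, brought its 6 h values down into the range at 24 h. Kcnq5, a KCNQ subunit of neurons, did not overlap between the time points, with 0.742 to 2.17 RPKM at 6 h and 0.297 to 0.666 RPKM at 24 h (log2 fold change -1.76, SE 0.19, adjusted p = 1.69e-07). Kcnd2 (-1.05, adjusted p = 1.91e-05) and Kcnd3 (-0.66, adjusted p = 4.25e-05), which carry A-type currents, were lower, as were the EAG genes Kcnh5 (-1.09, adjusted p = 2.46e-05) and Kcnh1 (-1.24, adjusted p = 8.12e-05), and the silent subunit Kcng1 (-0.92, adjusted p = 0.000356). Among the hair cell channels Kcnma1 was lower, with 2.69 to 7.30 RPKM at 6 h and 1.51 to 3.52 RPKM at 24 h (log2 fold change -0.93, SE 0.15, adjusted p = 2.04e-05).

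Of the 8 K2P genes tested 6 were lower and none was higher, where 30.7% of all genes were lower and 31.9% higher, and the families were not tested against other genes. The lower ones included Kcnk5 (-1.14 on the log2 scale, adjusted p = 5.45e-05), an alkali-sensitive leak channel, and Kcnk10 (-1.22), which was not above background. Of the 14 Kir genes tested 7 were lower and 2 higher, and 5 of the 7, Kcnj1 included, were not above background. The expressed Kir genes that differed were Kcnj10 (-0.43) and, on average, Kcnj13 (-0.67), which were lower, and Kcnj8 and Kcnj11, which were higher. Kcnj13 had values of -0.09 in CTRL and 0.26 in PIO, so its call is not a result on culture time alone. Kcnj3 had a log2 fold change of -1.39 (adjusted p = 0.000444) but was at the level of the background. Of the 43 members that differed, 6 were not above background.

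Small-conductance calcium-activated channels were higher at 24 h. Kcnn1 (log2 fold change 0.77, adjusted p = 0.000244), Kcnn2 (0.63, adjusted p = 0.00151) and Kcnn3 (0.92, adjusted p = 5.38e-05) all passed the test. Kcnn2 ranged from 1.27 to 2.53 RPKM at 6 h and from 1.64 to 4.47 RPKM at 24 h, so its libraries overlapped. Kcnd1, the remaining Kcnd gene, was also higher, with 0.711 to 1.44 RPKM at 6 h and 1.22 to 2.62 RPKM at 24 h (log2 fold change 0.82, SE 0.13, adjusted p = 1.86e-05). The other members among the 10 with the lowest p-values in this direction were Kcnh6 (0.87), the sperm-type channel gene Kcnu1 (0.84), the pores of ATP-sensitive channels Kcnj8 (0.78) and Kcnj11 (0.71), and the auxiliary subunits Kcnab3 (0.73) and Kcnmb4 (0.57), with adjusted p-values from 0.000492 to 0.00373.

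**Figure D3:**
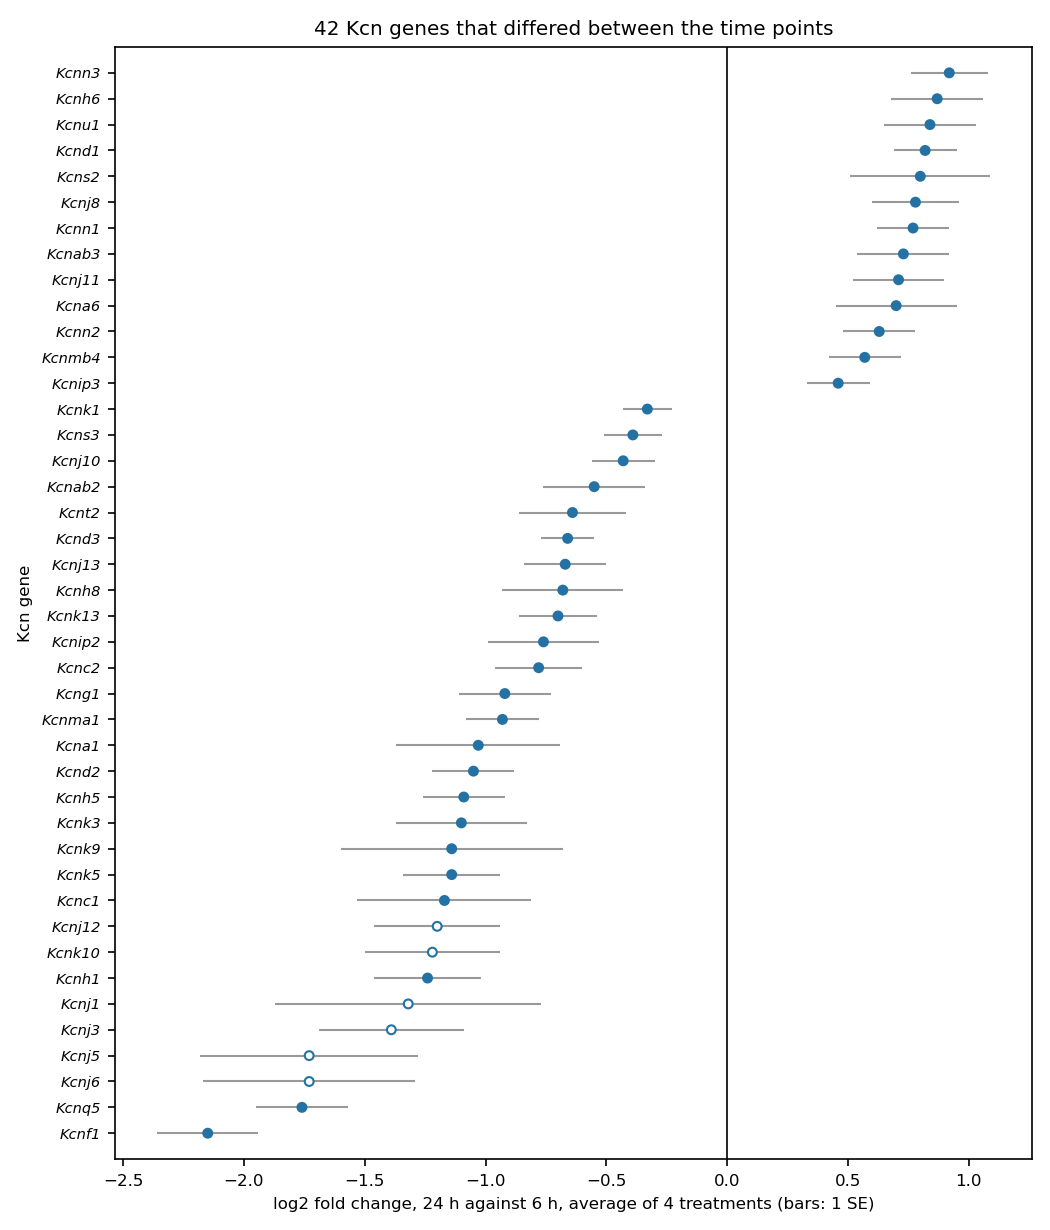
log2 fold change at 24 h against 6 h, averaged over the 4 treatments, of 42 of the 43 potassium channel genes with an adjusted p under 0.05, with bars of 1 SE. The 13 higher genes lie between 0.46 and 0.92 and the 29 lower ones drawn between -0.33 and -2.15, and open points are the 6 genes that were not above background.

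Markers of nerve moved in the same direction as the lower channel genes. Of 7 Schwann cell markers 5 were lower at 24 h and none higher (median log2 fold change -1.34), and of 7 neuron markers 5 were lower and none higher (median -1.09), for example the neuron marker Stmn2 (-1.09). Markers of other cells moved in the direction of the higher channel genes, with 4 of 6 fibrocyte markers (median 0.61), 4 of 7 macrophage markers (median 0.46) and 4 of 8 supporting cell markers (median 0.31) higher and none lower. The summed fibrocyte markers ranged from 422.2 to 919.5 RPKM at 6 h and from 724.2 to 1229.8 RPKM at 24 h. The part of these cells in the changes of the channel genes was not tested. A fit of the CTRL libraries alone gave 6 lower and 2 higher of 74 members, where 27.4% of all genes were called, among which were Kcnf1, Kcnq5, Kcnk5 and Kcng1 (lower) and Kcnd1 and Kcnn2 (higher). Of the 27 genes that handle potassium together with the channels, 25 passed the filter, of which 9 were higher and 3 lower at 24 h, against 31.9% and 30.7% of all genes. The higher ones included the connexins Gjb2 (0.81) and Gjb6 (1.29) of supporting cells and fibrocytes.

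Pioglitazone was next compared with its absence at each time point. In the single comparisons few genes passed the test. PIO against CTRL gave 0 members at 6 h, where 0.337% of all genes passed, and 0 at 24 h, where 0.153% passed. At an unadjusted p under 0.05 there were 0 higher and 8 lower members at 6 h (8.36% and 6.83% of all genes) and 1 higher and 6 lower at 24 h (3.42% and 6.51% of all genes). With DESeq2 there were 2 lower members at 6 h and 1 lower at 24 h (2.6% and 0.993% of all genes called). The lowest p-values were those of Kcns1 (log2 fold change -1.52, adjusted p = 0.0807) and Kcnh2 (-1.08, adjusted p = 0.134) at 6 h and of Kcnj15 (-2.04, adjusted p = 0.0865) and Kcnc2 (-1.04, adjusted p = 0.32) at 24 h. PIO+GM against GM gave 1 higher and 0 lower members at 6 h (0.601% and 0.723% of all genes) and 0 at 24 h, where 0.11% of all genes passed. At an unadjusted p under 0.05 the latter had 0 higher and 9 lower members (2.73% and 4.74% of all genes), and none with DESeq2.

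The average of both comparisons, which uses 6 libraries with and 6 without pioglitazone at a time point, gave more calls at 6 h and at 24 h. At 6 h, 8 members were lower and 1 higher with pioglitazone, against 6.83% and 9.25% of all genes. Of the 80 members 58 had a log2 fold change below 0, and 27.5% of members were above 0 compared with 47.6% of all genes. The median of the 80 members was -0.269, compared with -0.024 for all genes. At 24 h, 2 members were lower (2.0% of all genes) and none higher (0.791% of all genes). At this time 68 of 80 were below 0, with a median of -0.311 compared with -0.002 for all genes. Above 0 were 15% of members and 49.6% of all genes. Markers of other cells also differed at 24 h, with Col3a1 of fibrocytes (-0.93, adjusted p = 0.00863), Acan of cartilage (-1.62, adjusted p = 0.038) and Cspg4 of pericytes (-0.96, adjusted p = 0.0485) lower, and 10 of 11 hair cell markers below 0 (median -0.35, none past the threshold). Of the 6 markers in each list, 2 were below 0 for fibrocytes (median 0.06), 5 for cartilage or bone (median -0.98) and 6 for vessels (median -0.38). Their part in the values of the channel genes was not tested. The average shares its libraries with the single comparisons, and the 2 time points share none.

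Promoter sequences were read for the members that these results turn on, from RefSeq on GRCm38.p6, as windows of 250 bases before to 50 bases after a gene's start. Of the 92 members 67 were found in that set, with 92 windows, among 32851 windows of 27025 genes. Member windows had a median GC content of 58.0%, compared with 52.7% for all windows. Both strands were searched for AGGTCA, the core hexamer that nuclear receptors such as PPAR-γ bind as a repeat. It stood in 6 of the 92 member windows (6.52%) and in 16.3% of all windows. The repeat AGGTCANAGGTCA, which contains the hexamer, was in 0 member windows and in 0.0396% of all windows. A match is a description of these letters only, and the absence of one says nothing on the binding of a receptor.

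The 4 windows printed belong to Kcns1 (chr2:164171064-164171363, minus strand), Kcnf1 (chr12:17176839-17177138, minus strand) and Kcnj15 (chr16:95257308-95257607, plus strand), which were lower with pioglitazone, and Kcnj13 (chr1:87394680-87394979, minus strand), which was lower with gentamicin. They were chosen after the values were seen, are written from 5′ to 3′ along the gene, and capitals mark AGGTCA or its reverse complement. Of these windows 1, that of Kcnf1, held the hexamer, once on each strand. That of Kcns1 had 22 CpG dinucleotides and a GC content of 64.0%, compared with 3 and 53.0% for Kcnf1, 2 and 49.7% for Kcnj15 and 5 and 46.0% for Kcnj13.
Kcns1: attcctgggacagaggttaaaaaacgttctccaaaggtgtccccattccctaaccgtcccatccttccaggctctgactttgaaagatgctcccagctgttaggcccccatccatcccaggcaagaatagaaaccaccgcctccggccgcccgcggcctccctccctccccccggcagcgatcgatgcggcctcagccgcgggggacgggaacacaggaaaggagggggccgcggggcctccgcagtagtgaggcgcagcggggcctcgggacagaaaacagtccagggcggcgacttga
Kcnf1: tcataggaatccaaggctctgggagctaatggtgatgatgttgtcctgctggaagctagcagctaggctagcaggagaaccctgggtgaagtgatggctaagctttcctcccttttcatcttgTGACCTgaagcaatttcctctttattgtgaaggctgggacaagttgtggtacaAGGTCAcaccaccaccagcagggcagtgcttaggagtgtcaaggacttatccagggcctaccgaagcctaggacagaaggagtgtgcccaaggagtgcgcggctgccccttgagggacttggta
Kcnj15: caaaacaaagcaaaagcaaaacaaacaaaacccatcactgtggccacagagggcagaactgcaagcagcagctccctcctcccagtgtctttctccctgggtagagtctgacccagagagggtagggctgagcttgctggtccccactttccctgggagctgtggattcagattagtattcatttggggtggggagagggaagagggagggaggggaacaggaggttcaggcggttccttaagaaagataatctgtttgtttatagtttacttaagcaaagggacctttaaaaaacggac
Kcnj13: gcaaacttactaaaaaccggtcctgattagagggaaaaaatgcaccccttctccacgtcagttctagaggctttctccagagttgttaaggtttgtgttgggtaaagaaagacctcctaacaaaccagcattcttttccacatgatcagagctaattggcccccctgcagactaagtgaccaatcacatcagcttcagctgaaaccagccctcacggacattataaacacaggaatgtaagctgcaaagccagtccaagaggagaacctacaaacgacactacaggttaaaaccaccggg

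Kcns1, Kcnh2 and Kcnf1 had the lowest p-values among the genes lower at 6 h, while the other 6 silent and 6 EAG genes tested did not pass the test. Kcns1, a silent subunit, lay at 2.28, 2.05 and 1.68 RPKM in CTRL, at 2.08, 3.29 and 2.36 RPKM in GM, at 0.485, 0.897 and 0.720 RPKM in PIO and at 2.00, 0.621 and 0.497 RPKM in PIO+GM. All libraries with pioglitazone but replicate 1 of PIO+GM were below all without it. The log2 fold change was -1.40 (SE 0.27, adjusted p = 0.00362). At 24 h the 6 libraries with pioglitazone (0.586 to 1.25 RPKM) were again below the 6 without it (1.66 to 2.54 RPKM), with a log2 fold change of -0.92 that missed the threshold (SE 0.26, adjusted p = 0.0599). Kcnh2, whose channel also repolarizes the heart, lay between 2.94 and 4.30 RPKM without pioglitazone and between 1.02 and 1.98 RPKM with it, except for replicate 1 of PIO+GM at 3.84 RPKM (log2 fold change -0.90, SE 0.23, adjusted p = 0.0149). Kcnf1 ranged from 1.42 to 3.13 RPKM without and from 0.507 to 2.00 RPKM with pioglitazone (-1.04, SE 0.27, adjusted p = 0.0177).

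Other genes lower at 6 h included a channel of supporting cells. Kcnj10 lay between 10.1 and 21.6 RPKM without and between 7.44 and 12.4 RPKM with pioglitazone (log2 fold change -0.57, SE 0.18, adjusted p = 0.0384). Kcnn4, a calcium-activated channel of blood cells and epithelia, lay between 1.80 and 4.04 RPKM without pioglitazone and between 0.0662 and 1.08 RPKM with it, with no overlap (-2.19, SE 0.61, adjusted p = 0.0234). Kcna3, known from lymphocytes and microglia (-0.79, adjusted p = 0.0338), and Kcnn1 (-0.66, adjusted p = 0.0493) were lower as well, but with the GC trend removed their values were -0.42 (adjusted p = 0.309) and -0.35 (adjusted p = 0.292).

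Replicate 1 of PIO+GM at 6 h stood apart from the other libraries of its group in several of these genes. It had the highest level of its group for Kcns1, Kcnh2, Kcnf1, Kcnn4, Kcna3 and Kcnj10, and it is the library of that group with high Kcne1. It was also the highest of its group in the summed markers of Schwann cells (942 RPKM, against 465 and 132 RPKM), neurons (137 RPKM, against 78.5 and 35.7 RPKM) and cartilage or bone (1267 RPKM, against 652 and 514 RPKM). Without it 19 members were called in the average comparison at 6 h, 17 lower and 2 higher, of 81 tested, where 30.6% of all genes were called compared with 16.1% with all libraries. Without replicate 1 of CTRL or replicate 2 of PIO+GM 4 members passed the threshold, and without replicate 2 of PIO or replicate 3 of PIO+GM 5 did, where between 6.88% and 8.07% of all genes were called. Without all 8 libraries with high Kcne1 the count was 23 of 80, of which 20 were lower, and 36.9% of all genes were called. Kcns1, Kcnh2 and Kcnf1 passed the test with each of the 12 libraries left out in turn. In a fit of the compared libraries only, Kcns1 (adjusted p = 0.0636), Kcnf1 (adjusted p = 0.0794) and Kcnh2 (adjusted p = 0.0981) did not pass, nor did Kcnh2 with the GC trend removed (log2 fold change -0.50, adjusted p = 0.108) or Kcnf1 without the 2 libraries with the highest receptor share (adjusted p = 0.0531). With a library left out, Kcnn4 passed in 7 of 12 fits, Kcna3 in 5, Kcnj10 in 4 and Kcnn1 in 3.

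At 6 h the share of counts on receptor genes ranged from 90.9 to 277.6 CPM with pioglitazone and from 56.9 to 129.7 CPM without it. In a fit with the share of receptor counts as a covariate Kcns1 still passed the test, and Kcna3 (-0.76, adjusted p = 0.0684) and Kcnn1 (-0.57, adjusted p = 0.122) did not. Markers of other cells were lower in part, with 7 of 7 Schwann cell markers below 0 (median -0.57) and Sox10 past the threshold, 7 of 7 neuron markers below 0 (median -0.44) of which none passed it, 7 of 11 hair cell markers below 0 (median -0.23) of which 4 passed it, and 5 of 6 markers of vessels below 0 (median -0.52) of which 2 passed it. Among all genes tested, 47.6% were above 0 and 6.83% were called lower. The part of these cells in the lower levels of channel genes was not tested.

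Kcnj1, the renal secretory channel, was the 1 member called higher at 6 h, but at a level within the background. It had 3, 3 and 3 counts in CTRL, 0, 2 and 1 in GM, 10, 14 and 3 in PIO and 15, 17 and 10 in PIO+GM. It passed the filter on low counts only through the pioglitazone libraries at 6 h, so its adjusted p of 0.00754 for the average and 0.0419 for PIO+GM against GM are a description. DESeq2 gave it no adjusted p and called no member higher in either comparison, and 10 and 1 lower (22.4% and 9.88% of all genes called). With so few counts no fold change with pioglitazone is given, and the log2 values of Kcnj1 for culture time above rest on counts as low. In the latter comparison the call was lost, with an adjusted p from 0.0851 to 0.19, without any 1 of the 3 GM libraries or replicates 2 or 3 of PIO+GM.

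At 24 h, Kcnj15, a Kir gene of epithelia, was lower with pioglitazone. It lay at 1.85, 0.520 and 2.25 RPKM in CTRL, 1.33, 0.605 and 1.10 RPKM in GM, 0.400, 0.298 and 0.419 RPKM in PIO and 0.399, 0.208 and 0.628 RPKM in PIO+GM. The lowest value of each group was that of replicate 2, the library with high Kcne1. The log2 fold change was -1.67 (SE 0.34, adjusted p = 0.0109), and it passed the test in all 22 alternatives run, with each library left out included. Kcnc2, a fast Kv channel, lay between 0.490 and 0.774 RPKM without and between 0.244 and 0.409 RPKM with pioglitazone (-1.03, SE 0.26, adjusted p = 0.0411). The groups of Kcnc2 did not overlap, but its call was lost when any of 11 of the 12 libraries was left out, all but replicate 2 of GM, with adjusted p-values up to 0.102. Kcnip2, an auxiliary subunit of A-type channels, had a log2 fold change of 0.74 (adjusted p = 0.261).

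**Figure D4:**
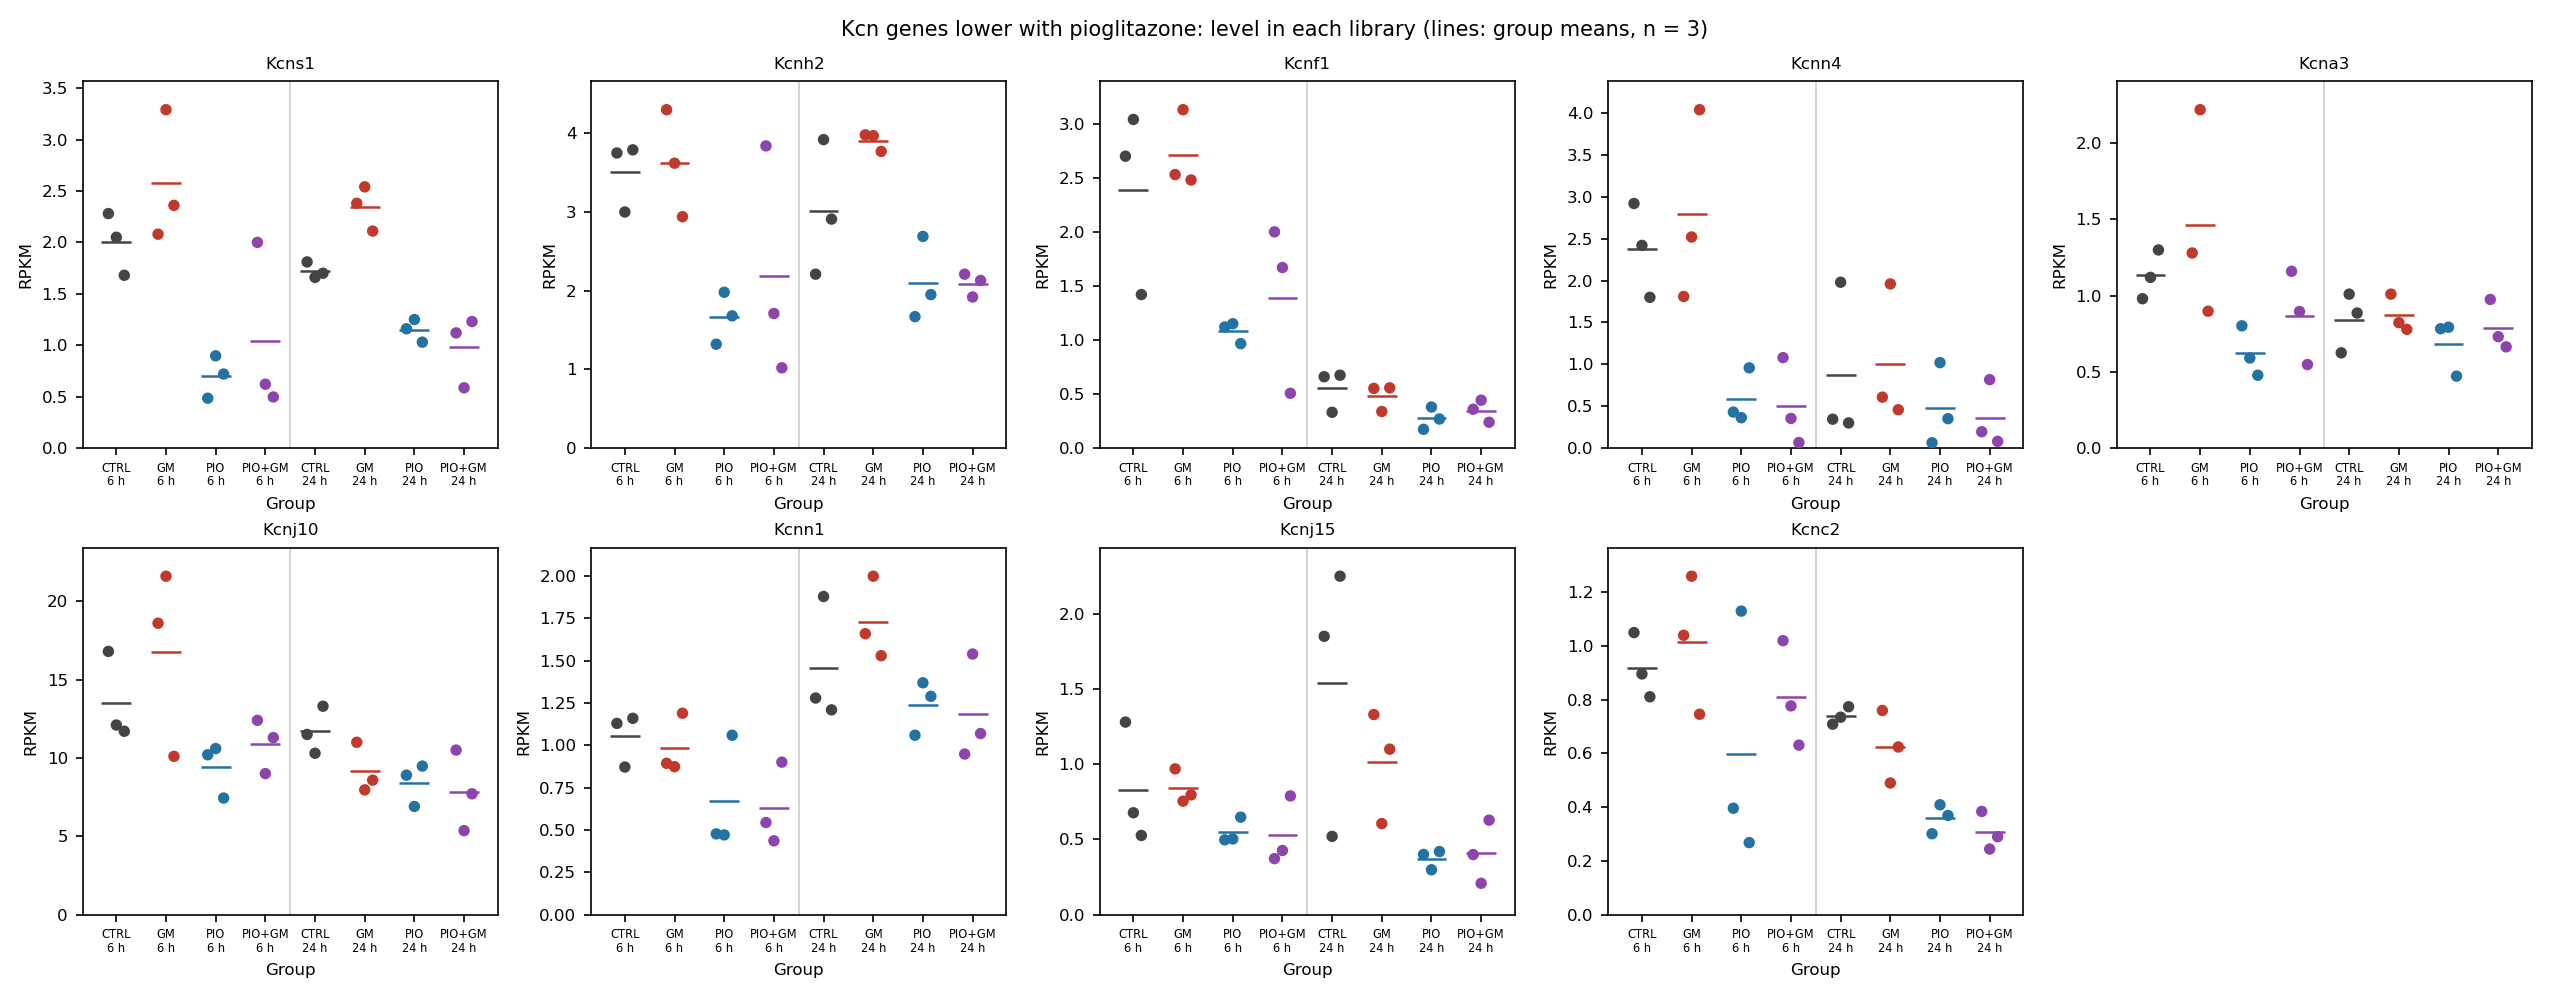
Level in RPKM of 7 of the 8 genes lower with pioglitazone at 6 h and the 2 lower at 24 h (Kcnj15 and Kcnc2), for each library (points) with group means (lines, n = 3). Replicate 1 of PIO+GM at 6 h is the high point of its group for Kcns1 (2.00 RPKM) and Kcnh2 (3.84 RPKM), and in Kcnc2 at 24 h all libraries with pioglitazone are below those without.

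No member differed past the threshold in its response to pioglitazone between 24 h and 6 h (lowest adjusted p = 0.405 for the interaction over 16317 genes, 3 members at an unadjusted p under 0.05), nor with and without gentamicin (lowest adjusted p = 1.0 at each time point). In the average comparison pioglitazone gave 0 higher and 0 lower genes among the 25 potassium handling partners tested at either time point, with medians of -0.18 at 6 h and -0.09 at 24 h.

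Gentamicin was compared with its absence in the same way. GM against CTRL gave 0 members at 6 h and 0 at 24 h, and 0.0% and 0.0123% of all genes. At an unadjusted p under 0.05 there were 0 higher and 1 lower member at 6 h (0.962% and 0.527% of all genes) and 0 higher and 3 lower at 24 h (0.784% and 0.883% of all genes), and DESeq2 gave none at either time point. At 6 h the lowest p-values in each direction were those of Kcng1 (log2 fold change -0.81) and Kcnh3 (1.54, at the level of the background), with adjusted p = 1.0 for both. At 24 h the members with the lowest p-values were Kcnj13 (log2 fold change -1.41, SE 0.35, adjusted p = 0.38), Kcna10 (-1.65, SE 0.53, adjusted p = 1.0, and 0.017 to 1.0 over 16 alternatives) and Kcnq3 (-0.60).

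Over both backgrounds, a comparison added after the data were seen, Kcnj13 was lower with gentamicin at 24 h. It lay at 3.82, 4.71 and 4.88 RPKM in CTRL, 5.61, 2.92 and 4.02 RPKM in PIO, 1.11, 1.92 and 1.99 RPKM in GM and 1.02, 1.39 and 0.775 RPKM in PIO+GM. All 6 libraries with gentamicin were below all 6 without it. The log2 fold change was -1.69 (SE 0.25, adjusted p = 0.00162), and within the backgrounds it was -1.41 (SE 0.35) without and -1.98 (SE 0.36) with pioglitazone. It was the 1 member called lower, where 0.11% of all genes were lower and 0.202% higher, and none was called higher. Kcnj13 passed the test in all 22 alternatives run, with adjusted p-values from 6.09e-08 to 0.00979. At 6 h it ranged from 2.19 to 5.43 RPKM with and from 2.20 to 5.16 RPKM without gentamicin, and 0 members were called (0.0123% of all genes). The difference between the time points had a log2 value of -1.51 (SE 0.35) that did not pass the adjustment over all genes (adjusted p = 0.408).

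Gigyf2, whose exons on the opposite strand cover 20.4% of the length of Kcnj13, ranged from 23.1 to 31.1 RPKM over all libraries and had a log2 fold change of 0.00 (SE 0.07) with gentamicin at 24 h. The gene Kcnj13 lies on the minus strand of chromosome 1 from 87386363 to 87394729 (GRCm38).

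Kcna10 followed, with values at 24 h of 6.30, 3.22 and 8.55 RPKM in CTRL, 6.23, 1.89 and 5.99 RPKM in PIO, 1.49, 0.814 and 3.40 RPKM in GM and 1.34, 0.953 and 3.67 RPKM in PIO+GM. Its groups overlapped, and replicate 2, the one with high Kcne1, was the lowest of each group. Within each replicate number the level was lower in GM than in CTRL and lower in PIO+GM than in PIO. The log2 fold change of -1.45 (SE 0.37, adjusted p = 0.155) did not pass the threshold. It passed in 5 of 22 alternatives, among them the fit with a replicate block (adjusted p = 0.000752) and DESeq2 (adjusted p = 0.0199). The fit without replicate 3 of PIO+GM (adjusted p = 0.0483) was another. Over all 22 the adjusted p-values ranged from 0.000752 to 0.604. Kcnn2 and Kcnma1 had log2 fold changes of -0.38 and 0.03, with adjusted p = 1.0 for each. The summed level of 11 hair cell markers at 24 h ranged from 106 to 226 RPKM in CTRL, 72.6 to 129 RPKM in GM, 65 to 159 RPKM in PIO and 50.6 to 95 RPKM in PIO+GM. Of these markers 8 of 11 were below 0 with gentamicin (median -0.40, none past the threshold), among them the outer hair cell genes Slc26a5 (-1.84) and Ocm (-1.95), and 8 of 8 supporting cell markers were (median -0.22, none past the threshold). Among all genes tested, 49.4% were above 0. The part of either cell type in the values of Kcnj13 and Kcna10 was not tested.

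**Figure D5:**
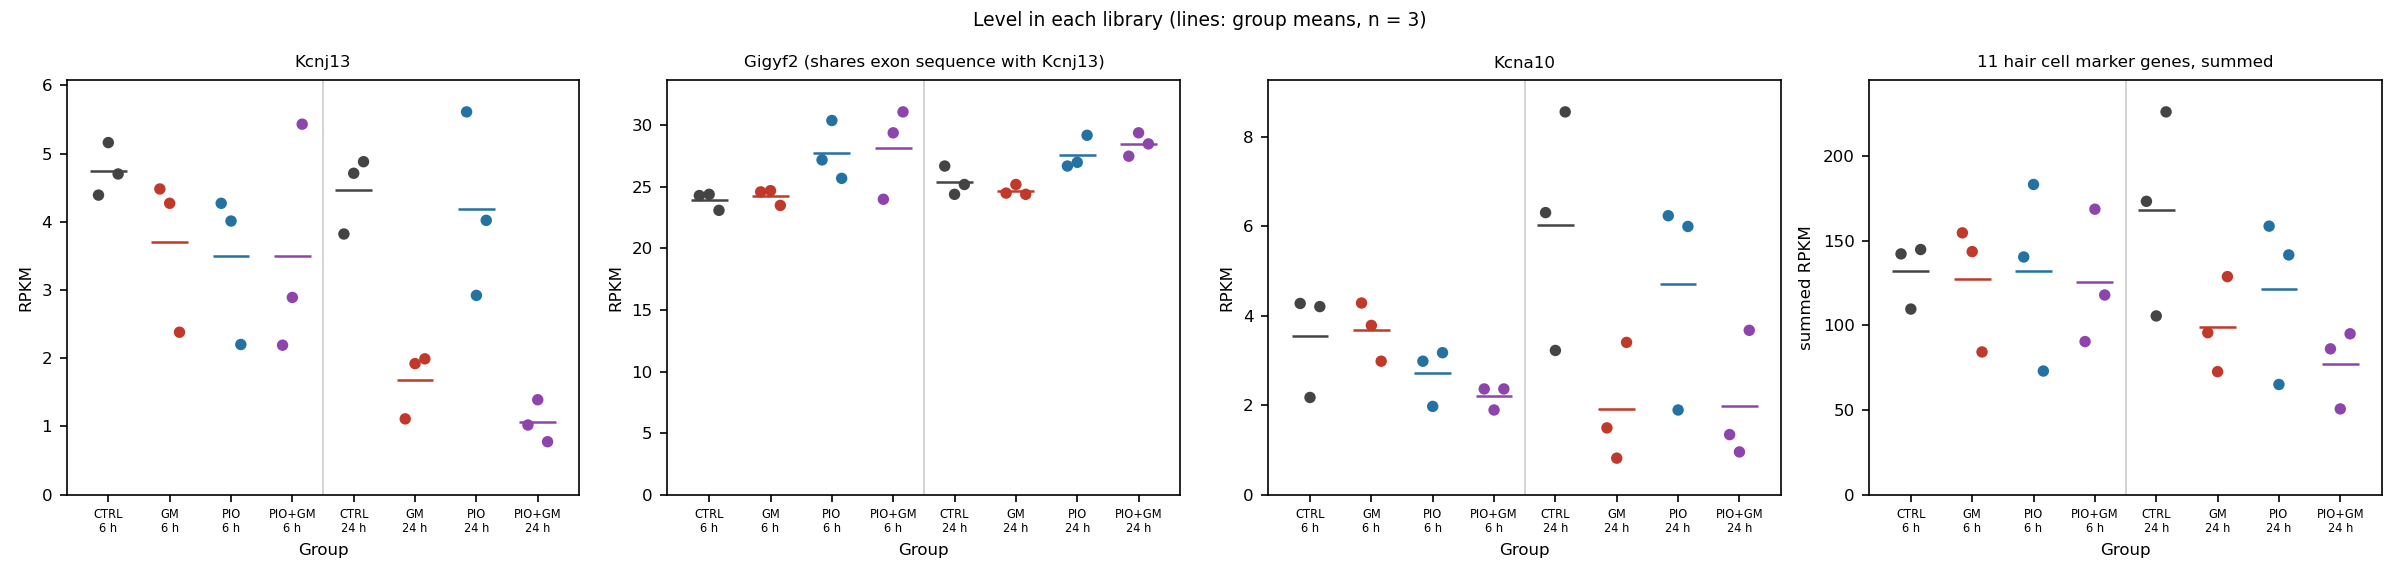
Level in RPKM of Kcnj13, Gigyf2 and Kcna10 and the summed RPKM of 11 hair cell markers in each library (points), with group means (lines, n = 3). At 24 h the 6 gentamicin libraries of Kcnj13 lie between 0.775 and 1.99 RPKM and the 6 others between 2.92 and 5.61 RPKM, while the groups of Kcna10 overlap.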

How the data were processed

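OCs from P5 C57BL/6N mice were sequenced as stranded total RNA libraries. Per the labels the submitters' processing notes name STAR and mm10, and the authors counted reads starting in RefSeq exons with QuasR. The deposited table holds raw counts for each of 24 libraries and each gene's length, listed by Entrez identifier. How strand and reads with several matches were treated is not given in the sources used here. RPKM and CPM were computed here from those counts, lengths and TMM-scaled totals.

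Counts were analysed with edgeR 4.0.16 in R 4.3.3 (TMM, filterByExpr, quasi-likelihood F-test, threshold 0.05), with 1 mean for each group and all 24 libraries in the model. p-values were adjusted over 16317 genes. Standard errors were derived from the F statistic. DESeq2 1.42.0, other normalization and filters, a replicate block, removal of a GC trend, a receptor covariate and leaving out libraries were alternatives. The procedure was tested on simulated data. Figures were drawn with matplotlib 3.10.9.

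Text names the 20 members highest in median RPKM, up to 10 called members for each direction and comparison, the 2 with the lowest p otherwise, and fixed lists of hair cell, endolymph and supporting cell channels. Some genes that these rules select are not reported here. Members and lists were chosen with earlier results of these data known. Locations come from GENCODE on GRCm38. Precision is set by library totals of 7211357 to 15548856, and 3 counts correspond to 0.193 to 0.416 CPM, which covers counting error only.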

Additional observations from a re-analysis of the deposited data

How the results depend on the processing

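The count of expressed members was 72, between 71 and 72 with any library left out, and 44 with a limit of 1 RPKM. It was 81 with the 95th percentile of the receptor genes (0.082 RPKM) as the limit and 77 with at least 1 CPM in 3 libraries. Counts of called members for GM against CTRL at 6 h and 24 h, PIO against CTRL at 6 h and PIO+GM against GM at 24 h were 0 with any library left out. With all libraries kept, 62.6% of all genes were called for 24 h against 6 h and 0.153% for PIO against CTRL at 24 h. Over both backgrounds at 24 h the shares were 2.79% for pioglitazone and 0.313% for gentamicin. Leaving out 1 library gave 0 to 1 for PIO against CTRL at 24 h (1 without replicate 2 of CTRL), 0 to 11 for PIO+GM against GM at 6 h (11 of 81 without replicate 1 of PIO+GM, where 24.4% of all genes were called), 4 to 19 for pioglitazone over both backgrounds at 6 h (19 of 81 without the same library, where 30.6% were called), 1 to 2 at 24 h, 41 to 48 for 24 h against 6 h, 0 for gentamicin over both backgrounds at 6 h and 1 to 2 at 24 h (2 without replicate 3 of PIO+GM).

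For pioglitazone over both backgrounds at 6 h the 9 calls (16.1% of all genes called) became 2 with only the libraries compared (0.907%), 5 with the GC trend removed (11.4%) and, as alternatives chosen after seeing the data, 23 without the 8 libraries with high Kcne1 (36.9%) and 4 without the 2 with the highest receptor share (4.78%). At 24 h the 2 calls (2.79% of all genes called) became 1 with no filter (1.15%), 6 with DESeq2 (5.95%), 9 with only the libraries compared (8.68%), 6 with the GC trend removed (11.3%), 4 without the 8 libraries (3.0%) and 5 without the 2 (5.02%). For 24 h against 6 h the 43 calls (62.6% of all genes) became 8 with only the CTRL libraries (27.4%), 35 with the receptor covariate (53.7%) and 45 without the 8 libraries (60.7%). The 1 call of PIO+GM against GM at 6 h (1.32% of all genes called) became 0 with no filter (0.31%) or only the libraries compared (0.0%). The count was also 0 with the GC trend removed, the receptor covariate or without the 2 libraries, and 15 of 80 without the 8 libraries (18.9% of all genes). PIO against CTRL gave 2 at 6 h and 1 at 24 h with DESeq2 (2.6% and 0.993% of all genes), 1 at 24 h with the GC trend removed (1.77%), 5 and 1 without the 8 libraries (2.9% and 0.269%) and 1 at 6 h without the 2 (0.64%). Gentamicin over both backgrounds at 24 h gave 2 with DESeq2 and with the receptor covariate (0.595% and 0.423%). The causes were not tested.

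The replicate numbers were not taken as pairs, since not every same-numbered pair deviated together from its group means with a correlation over 0.1. At 6 h 9 of 18 did and at 24 h 15 of 18, against 13 and 10 of 36 differently numbered pairs. The mean correlation at 24 h was 0.38 for same-numbered pairs and -0.18 for the others, so libraries of 1 number shared part of their spread at that time. With a replicate block the calls were 14 and 7 for pioglitazone over both backgrounds at 6 and 24 h (27.0% and 7.3% of all genes), 4 for PIO+GM against GM at 6 h (12.2%), 1 for PIO against CTRL at 24 h (1.48%), 1 for GM against CTRL at 24 h (Kcna10, adjusted p = 0.017, 0.0735% of all genes) and 2 for gentamicin over both backgrounds at 24 h (0.509%), where Kcna10 passed with a log2 fold change of -1.54 (adjusted p = 0.000752). With the replicate block and the GC trend removed PIO against CTRL gave 2 at 6 h (5.68% of all genes) and 3 at 24 h (6.33%), PIO+GM against GM 2 at 6 h (4.26%), pioglitazone over both backgrounds 10 at 24 h (19.7%), GM against CTRL 1 at 24 h (0.0735%) and gentamicin over both backgrounds 2 at 24 h (0.466%).

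For the named genes 1 of 1536 alternative values changed sign, the log2 fold change of Kcnn3 for GM against CTRL at 6 h, from -0.51 to 0.04 without replicate 3 of CTRL, where leaving out 1 library gave -0.79 to 0.04. In 101 the call was lost and in 31 one was gained. A call can be lost only where the main fit made one, and the losses were spread unevenly. For pioglitazone over both backgrounds at 6 h, Kcnn1 passed in 6 of 22 alternatives, Kcna3 in 9, Kcnj10 in 11 and Kcns1 in 21. Each named gene of 24 h against 6 h passed in 31 to 34 of 34.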
